A study of Bos taurus with 11 samples.

Results

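The endometrium of fertile cows was described from 6 arrays, 1 for each of 6 cows labelled fertile and biopsied on day 7 of the estrous cycle, out of 11 arrays in the series. Cows were counted as fertile when, before the biopsy, no more than 3 inseminations or embryo transfers had been needed for a pregnancy, and when the first transfer after it also gave one. No cow received a treatment according to the labels, and breed and age are not given in the sources used here. The other 5 arrays, from cows labelled subfertile, were not used, and no comparison between the groups was made. Total RNA from each whole biopsy was labelled with Cy3 and hybridised to a 1-colour Agilent bovine array, so each value comes from a mixture of all cells in the biopsy. Each fertile cow is called by its number in the labels, 1 to 6.

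On day 7 the corpus luteum is secreting progesterone, and a bovine embryo, where there is one, is a morula or young blastocyst that has recently entered the uterus and lives on the fluid around it. That fluid, called histotroph, is made largely by the uterine glands and the luminal epithelium under progesterone acting through its receptor. Interferon tau from the elongating conceptus, oxytocin receptor and prostaglandin F2 alpha release belong to later days, when the fate of the corpus luteum is decided.

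The members were the probes that the scanner software called well above background on all 6 fertile arrays, 29997 of 43653 non-control probes (68.7%). A further 1059 probes passed on 5 of the 6 arrays, and 8325 (19.1%) passed on none. The level of a probe is log2 of its processed signal minus the 75th percentile of its array, so that 0 is a brighter probe than 75% of those on the array and 1 unit is a 2-fold step. All probes called on all 6 arrays had a median level of -1.26, and the dimmest 5% of them lay at or below -5.38. Just outside the rule, probes called on 5 arrays had a median of -5.91 and those called on 4 had -6.20. A value on every array was left for 29844 probes after spots marked as outliers by the scanner software were dropped, and 153 probes were lost in that way.

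Of 15519 genes with a probe named here, 11984 (77.2%) were represented by a probe that passed, and each was described by its brightest such probe. The median level over these genes was 0.03 and the range over all passing probes was -6.44 to 7.39. Brightness depends on the sequence of the probe as well as on the amount of RNA, so ranks order probes and do not give molar amounts. Median processed signal ran from 161 to 452 over the 6 arrays, 71.98% to 77.4% of probes were well above background on each, and no spot was saturated. Replicate spots within an array had an SD of 0.04 to 0.07, below the median SD of 0.27 between cows over all described probes. There is 1 array for each cow, so differences between animals, biopsies and arrays cannot be told apart.

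The brightest probes belonged to protein synthesis, the mitochondrial genome and the cytoskeleton. Cytosolic ribosomal proteins held 21 of the 30 highest ranks and 57 of the first 100. RPS3, a protein of the small ribosomal subunit, was first, with a lowest cow at 7.10, a median of 7.38 and a highest cow at 7.66 (mean 7.39 ± 0.21, SD, n = 6). Second was TMSB4X, thymosin beta 4, which binds actin monomers, at 7.28 ± 0.18 (SD, n = 6). The mitochondrial cytochrome c oxidase subunits COX2, COX3 and COX1 stood at 7.22, 7.02 and 6.97. This COX2 is the mitochondrial subunit and not the prostaglandin synthase PTGS2. The elongation factor EEF1A1 (7.01), the translationally controlled protein TPT1 (6.99), the cytoplasmic actin ACTG1 (7.00), the iron store FTH1 (6.75) and the MHC class I heavy chain probe named BOLA (7.04) filled the other places. The cows were close together for these 30 genes: the 6 values of RPS3 spanned 1.47-fold, and the widest range, that of BOLA, was 1.86-fold.

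**Figure D1:**
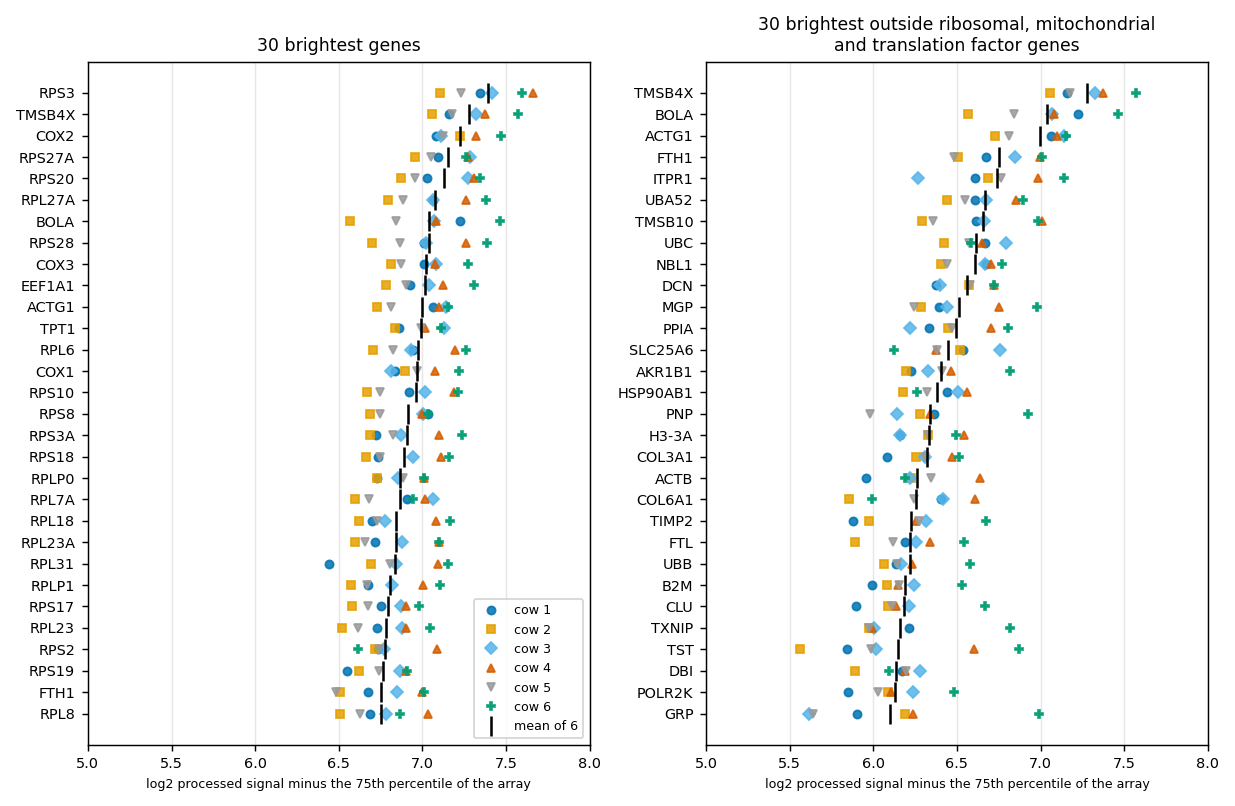
Level of the 30 brightest genes (left) and of the 30 brightest outside ribosomal, mitochondrial and translation factor genes (right), with 1 marker for each of the 6 fertile cows and a bar at their mean; the horizontal axis is log2 processed signal minus the array's 75th percentile. RPS3 leads at a mean of 7.39, and on the right matrix genes such as DCN (6.56) and COL3A1 (6.32) stand beside AKR1B1 (6.41).

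Outside that machinery, the next ranks went to connective tissue matrix and a few uterine products, a selection of names made after their values were seen. DCN, the collagen-binding proteoglycan decorin, ranked 50th, with a lowest cow at 6.38, a median of 6.58 and a highest at 6.72 (mean 6.56 ± 0.15, SD, n = 6). All 9 of its probes passed on all arrays, the dimmest at a mean of 0.16. MGP, which inhibits calcification of matrix, was at 6.51 ± 0.29 (SD, n = 6), and NBL1, a secreted BMP antagonist, at 6.61 ± 0.15 (SD, n = 6) on its brighter probe and 0.94 on the other. AKR1B1, an aldo-keto reductase that makes prostaglandin F2 alpha in bovine endometrium, ranked 62nd at 6.41 ± 0.23 (SD, n = 6). On these probes the 6 cows lay within a fraction of a log2 unit. IGF2, the fetal-type insulin-like growth factor, was at 6.02 ± 0.36 (SD, n = 6) on its brightest probe. Of its 13 probes 12 passed, but the means of the 13 ran from -6.18 to 6.02. MSX1, a homeobox factor of the uterus, was at 5.80 ± 0.37 (SD, n = 6). ITPR1, a calcium channel of the endoplasmic reticulum, was at 6.74 on 1 probe, while the means of its other 6 probes ran from -6.82 to 4.10, so its rank rests on that probe.

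The cell-type make-up was read from marker lists, and the share of list genes that passed on all arrays can be set beside 77.2% of all named genes. In a whole biopsy, fewer cells of a type and less RNA per cell cannot be told apart. All 16 stromal markers with a probe passed, with a median level of 3.21, and all 22 epithelial markers passed, with a median of 2.02. All 11 smooth muscle markers passed as well, with a median of 2.12. The median over all described genes was 0.03.

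Stromal markers were led by DCN, COL3A1 (6.32 ± 0.16, SD, n = 6), COL6A1 (6.25 ± 0.28, SD, n = 6) and COL1A2 (6.04 ± 0.11, SD, n = 6), which encode fibrillar and beaded-filament collagens. The intermediate filament gene VIM stood at 5.95 and the fibroblast protease FAP at 3.96. PDGFRB was the dimmest stromal marker at -3.79. The mean over the stromal list was much the same in each cow, from 2.65 in cow 6 to 2.97 in cow 3.

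Epithelial markers were led by the protease inhibitor SPINT2 (5.44 ± 0.26, SD, n = 6), keratin KRT8 (4.49 ± 0.54, SD, n = 6), the membrane protease ST14 (4.46 ± 0.27, SD, n = 6) and the adhesion protein EPCAM (4.28 ± 0.37, SD, n = 6). KRT18, the partner of KRT8 in simple epithelia, ranged from 2.49 in cow 3 to 4.25 in cow 6. CDH1, E-cadherin, was dim at -3.83 ± 0.25 (SD, n = 6). Cow 3 had the lowest value for 11 of the 22 epithelial genes and cow 6 the highest for 10. Over all described genes, cow 3 was lowest for 19.0% and cow 6 highest for 24.4%.

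Gland markers were fewer and more uneven. GRP, gastrin-releasing peptide, a secretory product of uterine glands, ranked 94th, with a lowest cow at 5.62, a median of 6.05 and a highest at 6.99 (mean 6.10 ± 0.51, SD, n = 6); only 1 of its 2 probes passed on all arrays. FOXA2, the transcription factor of gland epithelium, was at -2.74 ± 0.79 (SD, n = 6), SOX17 at 0.85 ± 0.87 (SD, n = 6) and PAX8 at -0.48 ± 0.28 (SD, n = 6). LGR5 passed on 5 arrays and was not described.

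Ciliated-cell markers passed in 18 of 19 cases, at a median of -1.72. TPPP3, a tubulin-binding protein, led at 3.98 ± 0.42 (SD, n = 6), followed by CAPS at 2.19 ± 0.48 (SD, n = 6). FOXJ1, the master factor of motile cilia, was at -4.68 ± 0.40 (SD, n = 6), or -3.77 with normexp, another background correction, and the dynein chains DNAI1, DNAH9 and DNAI2 lay between -4.74 and -5.40. Cow 2 was highest for 13 of the 18 genes and cow 4 for the other 5, while cows 1 and 6 were each lowest for 7. Over all described genes, cow 2 was highest for 14.0% and cow 4 for 18.8%, and cows 1 and 6 were lowest for 14.2% and 24.5%. The list mean ran from -2.53 in cow 6 to -1.58 in cow 2.

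Vessel and leukocyte marker lists had lower medians than the stromal and epithelial lists. Among endothelial markers 13 of 14 passed at a median of 0.18, led by EGFL7 (2.85 ± 0.31, SD, n = 6) and the tight-junction gene CLDN5 (2.22 ± 0.50, SD, n = 6), and VWF passed on no array. Macrophage markers passed in 12 of 13 cases at a median of -0.67, led by the complement chains C1QA (2.69 ± 0.75, SD, n = 6) and C1QB (1.95 ± 0.66, SD, n = 6). For T and NK cells 15 of 19 passed (78.9%) at a median of -1.83, with CD3D, a chain of the T cell receptor complex, at 1.42 ± 0.17 (SD, n = 6) and the granule protease GZMB at 1.27 ± 0.83 (SD, n = 6). For B and plasma cells 7 of 9 passed (77.8%) at a median of -3.14. Both shares were near the 77.2% of all named genes. JCHAIN, the joining chain of secretory antibodies, was at 2.09 ± 0.71 (SD, n = 6), the only 1 of 7 described B and plasma cell markers above the 75th percentile.

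Neutrophil markers passed in 4 of 8 cases and erythroid markers in 3 of 8, below the 77.2% of all named genes. The alpha globin probe HBA was at -1.35 ± 0.83 (SD, n = 6), and the beta globin HBB passed on 4 arrays. All 5 mast cell markers passed, at a median of -2.68, and none exceeded the 75th percentile.

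Markers of tissues that a uterine biopsy should hold little of had low medians, with some bright genes among them. Of 7 trophoblast genes, 3 passed, each between -4.98 and -4.41, and the placental products PAG2 and CSH2 passed on no array. Of 10 hepatocyte genes, 4 passed; APOA1, an apolipoprotein, was bright at 2.22 ± 0.45 (SD, n = 6), whereas ALB was at -4.99 and FGA and CYP2E1 passed on no array. Of 4 mesothelial genes, 2 passed. Skeletal muscle genes passed in 6 of 8 cases, at a median of -3.68. Neuronal and glial genes passed in 6 of 7 (85.7%), at a median of -3.02; S100B, a glial marker that other cells can also express, was at 3.71 ± 0.58 (SD, n = 6), SYT1, a synaptic vesicle protein, was at 0.88 ± 0.38 (SD, n = 6), and neurofilament NEFL passed on no array.

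Ovarian steroidogenic genes passed in 2 of 7 cases, and CYP19A1, FSHR and LHCGR in no array. The 3 genes of early steroid synthesis were uneven among cows. STAR, which carries cholesterol into mitochondria, was at -1.45 and -1.35 in cows 1 and 4 and between -3.75 and -3.02 in the others. HSD3B1, which makes progesterone, was well above background on 2 arrays only, at -2.97 in cow 1 and -1.94 in cow 4, against -8.44 or lower elsewhere. CYP11A1, the side-chain cleavage enzyme, was highest in the same cows, at -5.17 and -3.72.

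**Figure D2:**
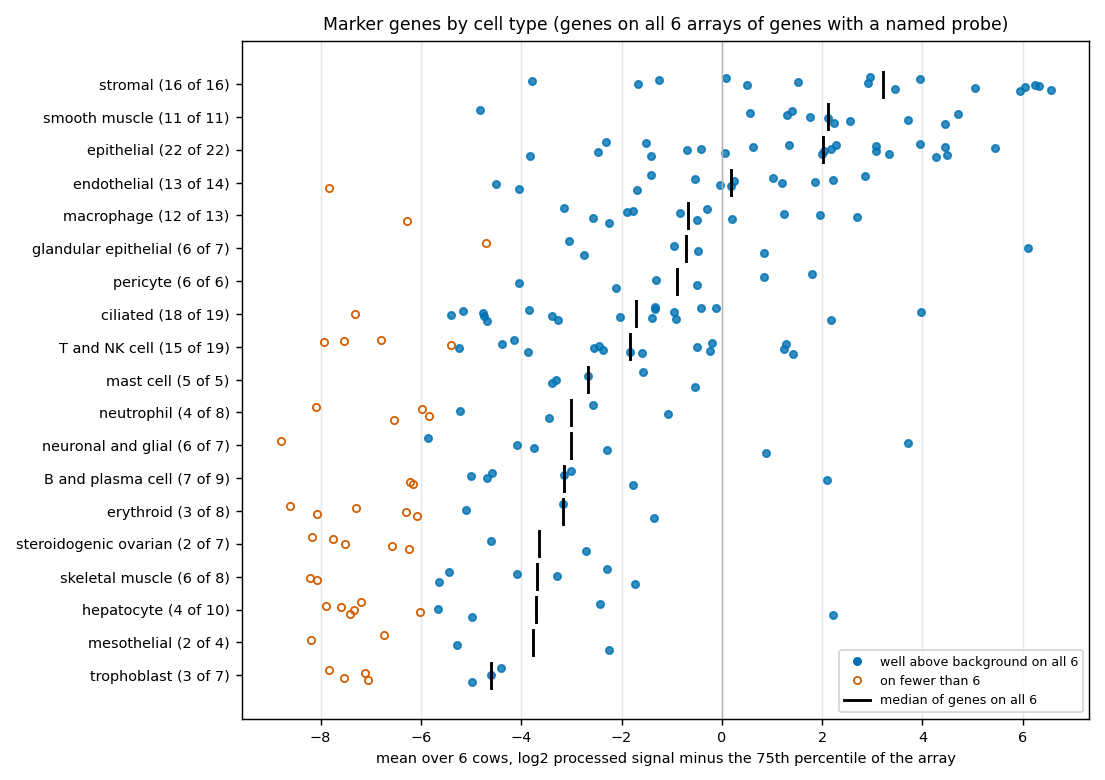
Mean level over the 6 fertile cows of each marker gene by cell type, with filled points for genes well above background on all 6 arrays, open points for the others and a bar at the median of the filled points; the horizontal axis is log2 processed signal minus the array's 75th percentile. Stromal (median 3.21), smooth muscle (2.12) and epithelial (2.02) markers lie highest, and trophoblast (-4.60) markers lie lowest.

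The progesterone receptor itself was measured by 1 probe. PGR was at -1.87, -1.11, -1.77, -1.34, -1.43 and -1.28 in cows 1 to 6 (mean -1.47 ± 0.29, SD, n = 6). The 6 values lay within 1 unit, with cows 1 and 3 lowest. Cows 1 and 3 shared a slide, and PGR was 0.55 ± 0.16 (SE) higher on the slide of cows 2 and 5 than on theirs, with a limma adjusted p of 0.159. The membrane-associated progesterone-binding proteins PGRMC1 (3.57 ± 0.31, SD, n = 6) and PGRMC2 (2.01 ± 0.20, SD, n = 6) were above the 75th percentile. Of the membrane progestin receptors, PAQR8 was at -2.86, PAQR7 at -5.18, and PAQR5 passed on no array.

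ESR2, estrogen receptor beta, was at 0.06 ± 0.16 (SD, n = 6) on its brightest probe, with a lowest cow at -0.18 and a highest at 0.26. All 3 of its probes passed, but the others had means of -2.14 and -4.65, so its level rests on that probe. ESR1, estrogen receptor alpha, was at -4.61 ± 0.46 (SD, n = 6), with a lowest cow at -5.19 and a highest at -4.08, and at a mean of -3.80 with normexp. All 4 ESR1 probes were dim, and 3 passed on all arrays. The glucocorticoid receptor NR3C1 was at -4.41 ± 0.46 (SD, n = 6), or -3.63 with normexp. All 9 receptor cofactors passed, and 7 were above the 75th percentile, near which the median described gene also lay (0.03). HSP90AB1, a chaperone of steroid receptors, was at 6.38 ± 0.15 (SD, n = 6), and the immunophilin FKBP5, a progesterone and glucocorticoid target, at 3.04 ± 0.34 (SD, n = 6).

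The PGR probe is shown because the level of PGR rests on it alone, and 2 of the ESR1 probes because all ESR1 probes were dim; the ESR1 level given above comes from a brighter probe that is not printed. All are 60 bases long, 5′ to 3′, with the coordinates and build (Btau_3.1) that the array files give. The PGR probe lies at chr15:6505046-6505105, plus strand. The ESR1 probes span introns, the first over chr9:92492781-92497702 and the second over chr9:92463499-92492661, both plus strand.
PGR: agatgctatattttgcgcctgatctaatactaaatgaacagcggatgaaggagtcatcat
ESR1, first probe: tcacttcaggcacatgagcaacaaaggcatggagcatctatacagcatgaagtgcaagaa
ESR1, second probe: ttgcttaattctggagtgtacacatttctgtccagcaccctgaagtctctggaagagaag
The first ESR1 probe had a mean of -5.18 and the second a mean of -5.73, the latter well above background on 5 arrays.

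Receptors of the luteolytic axis were dim. OXTR, the oxytocin receptor, had a lowest cow at -3.28, a median of -2.51 and a highest at -1.01 (mean -2.38 ± 0.81, SD, n = 6). On this probe cow 4 was highest and cow 6 lowest. The other OXTR probe passed on 5 arrays at a mean of -5.64, with cow 3 highest at -4.12 and cow 6 again lowest. PTGFR, the receptor of prostaglandin F2 alpha, passed on no array with any of its 3 probes. PTGER4, a prostaglandin E2 receptor, was at 0.08 ± 0.52 (SD, n = 6), and PTGER2 was at -4.07 ± 0.16 (SD, n = 6), or -3.43 with normexp.

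Among the enzymes, PTGS2, the inducible prostaglandin synthase, was at -2.01 ± 1.04 (SD, n = 6), from -3.60 in cow 6 to -0.81 in cow 2. Its other probes passed on 1 and 2 arrays, at means of -8.28 and -7.11, so its level and order of cows rest on 1 probe. PTGS1 was at -1.03 ± 0.16 (SD, n = 6), PTGES at -2.40 ± 0.60 (SD, n = 6), and PLA2G4A, which frees arachidonic acid, at 1.04 ± 0.34 (SD, n = 6). HPGD, which inactivates prostaglandins, was at 3.29 ± 0.38 (SD, n = 6). The probes of AKR1B1 and HPGD were the brightest of the 12 described enzymes and carriers, and both were highest in cow 6.

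Of 20 growth factor receptors with a probe, 17 passed, at a median of -1.44, and 4 were above the 75th percentile. These were ERBB3 (3.17 ± 0.37, SD, n = 6), a receptor of neuregulins, IGF2R (1.86 ± 0.39, SD, n = 6), which clears IGF2, FGFR2 (1.55 ± 0.37, SD, n = 6) and TGFBR2 (1.25 ± 0.42, SD, n = 6). The signalling receptors IGF1R and INSR were at -2.50 and -2.35, and EGFR was at -4.32, or -3.60 with normexp.

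Cytokine and pituitary hormone receptors passed in 17 of 21 cases (81.0%), near the 77.2% of all named genes. IFNGR1, the interferon gamma receptor, was at 2.98 with an SD of 0.09 over the 6 cows, and IL6R at 2.91 ± 0.20 (SD, n = 6). IFNAR2, a chain of the receptor for interferon tau, was at 1.12 ± 0.27 (SD, n = 6), and IFNAR1 passed on 4 arrays. LIFR was at -4.81 ± 0.13 (SD, n = 6), or -3.87 with normexp, and its ligand LIF passed on no array. PRLR, the prolactin receptor, passed on no array with either of its probes. GHR, the growth hormone receptor, was the most variable of the list at -0.59 ± 0.92 (SD, n = 6), with cow 6 at -2.17 and cow 4 at 0.38. IL17RA passed on all arrays but lost a value to an outlier spot and is not among those described.

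**Figure D3:**
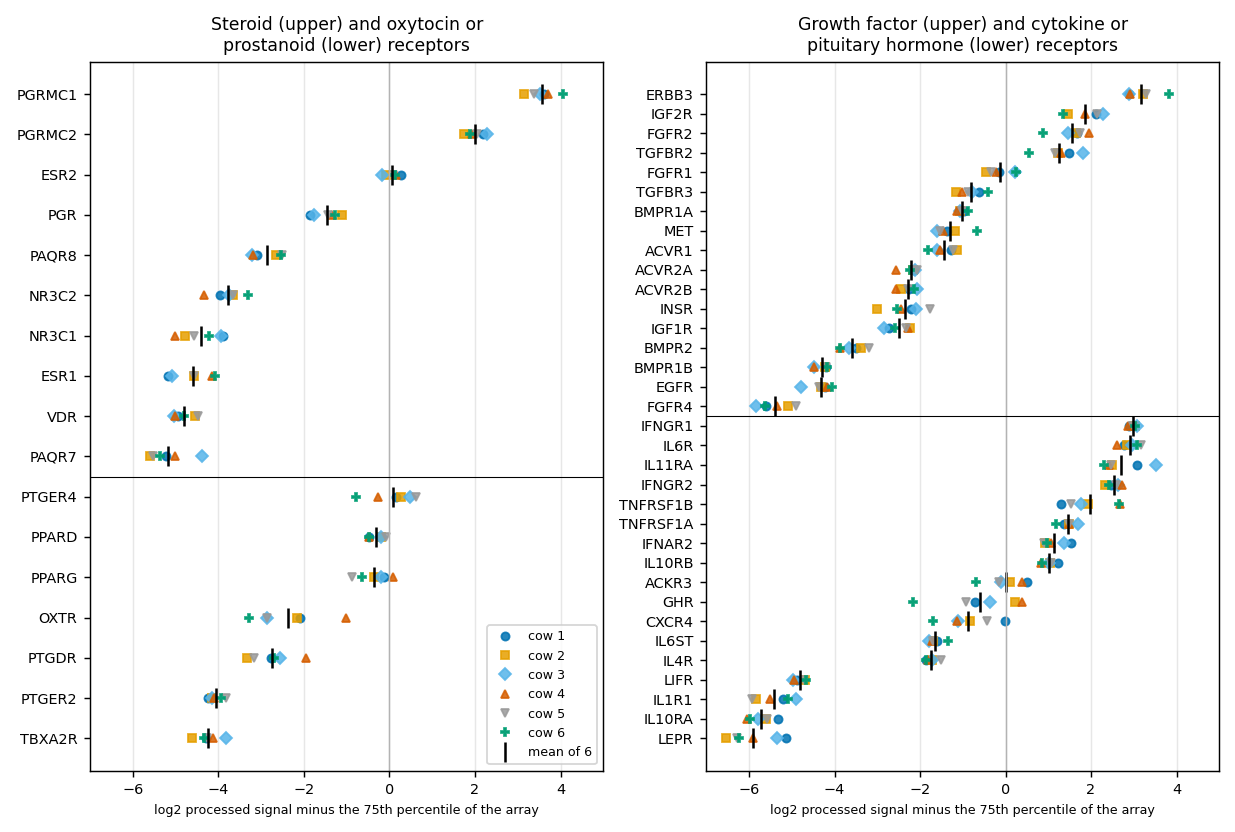
Level of the described steroid, oxytocin and prostanoid receptors (left) and growth factor, cytokine and pituitary hormone receptors (right) in each of the 6 fertile cows, with a bar at the mean; the horizontal axis is log2 processed signal minus the array's 75th percentile. PGRMC1 (3.57) and ERBB3 (3.17) lie well to the right of PGR (-1.47), ESR1 (-4.61) and EGFR (-4.32), and the 6 points of OXTR spread from -3.28 to -1.01.

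Secreted products were prominent. All 31 genes on the histotroph list passed, at a median level of 2.73 against 0.03 over all described genes. Of these 31, 22 were above the 75th percentile, near which the median described gene lay. TIMP2, a metalloproteinase inhibitor, was at 6.23 ± 0.28 (SD, n = 6), CLU, the secreted chaperone clusterin, at 6.18 ± 0.26 (SD, n = 6), and CST3, cystatin C, at 5.10 ± 0.28 (SD, n = 6). The cathepsins CTSD (4.74) and CTSB (4.21), the retinol carrier RBP4 (3.59 ± 0.18, SD, n = 6) and the trefoil peptide TFF3 (3.53 ± 0.50, SD, n = 6) followed. For each of these except TFF3, which ran from 2.81 to 4.13, the 6 cows lay within 1 unit.

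A few secreted products did not. LTF, the iron-binding antibacterial protein lactoferrin, was at 4.21, 4.06, 3.04, 7.13, 3.27 and 7.01 in cows 1 to 6 (mean 4.78 ± 1.83, SD, n = 6). Cows 4 and 6 stood above the other 4 cows by at least 2.80. All 5 LTF probes were highest in cow 4 and lowest in cow 3. SERPINA14, uterine milk protein, a progesterone-dependent serpin of the glands, was at -3.13, -1.96, -0.78, 0.40, -0.86 and 0.60 (mean -0.96 ± 1.42, SD, n = 6). Again cows 4 and 6 were highest, and cow 1 was lowest. SPP1, osteopontin, ran from -2.34 in cow 1 to 0.97 in cow 4 (mean -0.74 ± 1.19, SD, n = 6). CTSL, a cathepsin of the uterine epithelium, was at 1.76 in cow 2 and between -2.41 and -0.88 in the rest (mean -0.84 ± 1.39, SD, n = 6). PAEP, known as beta-lactoglobulin or glycodelin, was at -3.05 ± 0.32 (SD, n = 6).

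Probes of LTF, SERPINA14 and the lysozyme gene LOC781146, which shared the high values in cows 4 and 6, are shown 5′ to 3′, each 60 bases long. On Btau_3.1 they lie at chr22:54345392-54345451, plus strand, chr21:59392443-59392502, minus strand, and chr5:47790966-47791025, plus strand.
LTF: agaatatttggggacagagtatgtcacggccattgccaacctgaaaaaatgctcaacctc
SERPINA14: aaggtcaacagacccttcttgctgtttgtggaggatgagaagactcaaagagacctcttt
LOC781146: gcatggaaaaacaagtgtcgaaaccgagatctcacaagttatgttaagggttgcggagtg
On the LTF probe shown, cows 4 and 6 were at 4.91 and 4.68 and the other cows between 0.42 and 1.63. On the LOC781146 probe they were at -0.05 and 1.07 and the others between -4.47 and -3.20.

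Of the insulin-like growth factor binding proteins, 6 of 7 passed, at a median of 2.53. IGFBP7 (5.10 ± 0.23, SD, n = 6) and IGFBP6 (4.82 ± 0.52, SD, n = 6) led, IGFBP3 was at 2.83 ± 0.41 (SD, n = 6), and IGFBP1 passed on 2 arrays. Their ligand IGF1 was at 0.29 ± 0.55 (SD, n = 6).

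Matrix and matricellular genes passed in 30 of 30 cases at a median of 2.93. SPARC, a collagen-binding glycoprotein, was at 5.84 ± 0.20 (SD, n = 6), the gelatinase MMP2 at 4.15 ± 0.16 (SD, n = 6) and the basement membrane collagen COL4A1 at 3.06 ± 0.22 (SD, n = 6). TNC, tenascin C, had the largest SD of the list, with values from -1.07 in cow 6 to 2.12 in cow 3.

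Among growth factors and cytokines 35 of 44 passed (79.5%), near the 77.2% of all named genes, at a median of -0.39. PENK, the precursor of enkephalin peptides, ran from 2.04 in cow 6 to 5.50 in cow 1 (mean 4.25 ± 1.17, SD, n = 6). FGF2 (4.13 ± 0.13, SD, n = 6), the activin-binding protein FST (3.57 ± 0.49, SD, n = 6) and VEGFB (3.12 ± 0.14, SD, n = 6) followed. Besides LIF, the genes HBEGF, INHBB and CSF2 passed on no array. The WNT antagonist SFRP1 was at 3.74 ± 0.37 (SD, n = 6), whereas DKK1 varied more (-0.04 ± 1.22, SD, n = 6), with cow 6 lowest at -2.32.

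Transporters that feed the uterine fluid passed in 16 of 20 cases (80.0%), near the 77.2% of all named genes. The glutamate carrier SLC1A1 was at 4.27 ± 0.34 (SD, n = 6), the amino acid exchanger subunit SLC3A2 at 2.54 ± 0.18 (SD, n = 6), and the glucose transporter SLC2A1 at 2.10 ± 0.33 (SD, n = 6). The arginine carriers SLC7A1 and SLC7A2 passed on no array. Of the lipid genes, APOE was at 5.38 ± 0.31 (SD, n = 6), the lipoprotein receptor SCARB1 at 2.87, and FABP3 ran from -2.17 in cow 6 to 1.70 in cow 2. ATP1B1, the beta subunit of the sodium pump, was at 3.80 and the water channel AQP1 at 2.87 ± 0.67 (SD, n = 6). The epithelial sodium channel subunit SCNN1B ran from -5.01 in cow 6 to 0.03 in cow 4 on 1 probe, and its other probe passed on no array.

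Factors that pattern the female tract passed in 13 of 14 cases. After MSX1 came EMX2 (3.74 ± 0.31, SD, n = 6), HOXA10 (3.47 ± 0.44, SD, n = 6) and NR2F2 (2.93 ± 0.11, SD, n = 6). Interferon-response genes passed in 20 of 21 cases at a median of 0.33. IFI6 was at 3.36 ± 0.23 (SD, n = 6) and ISG15, the ubiquitin-like protein that interferon tau induces in pregnancy, at 0.62 ± 0.53 (SD, n = 6). MX2 was at -5.84 ± 0.58 (SD, n = 6), or -4.38 with normexp background correction, and OAS2 passed on no array. The list mean differed little between cows, from -0.78 in cow 6 to -0.58 in cow 4. B2M, the class I light chain, was bright at 6.19 ± 0.18 (SD, n = 6), and the class II gene BOLA-DRA was at 2.88 ± 0.29 (SD, n = 6). All 10 MHC class I and II genes with a probe passed, at a median of 1.36, with levels from -1.54 to 7.04.

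Variation among the 6 cows was small for most genes. The highest cow was less than 2-fold above the lowest for 8759 of 11984 genes (73.09%), and more than 4-fold above it for 561 (4.68%). The SD was larger for dim genes, with a median of 0.35 in the dimmest 20% of genes and 0.20 in the brightest 20%. Of the described probes, 515 (1.73%) had an SD above 1. Among genes above the 75th percentile, ARPC5, a subunit of the actin-nucleating complex, had an SD of 0.02.

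The most variable gene was JSP.1, an MHC class I heavy chain. Its brightest probe was at 5.85, 6.42, -5.84, 4.70, 6.34 and 6.53 in cows 1 to 6. Cow 3 was far below the other 5 cows, which ran from 4.70 to 6.53. The same cow was lowest on 3 further JSP.1 probes, at -8.07, -5.93 and -1.19, but highest on the remaining one at -0.38. The MHC class I probe named BOLA did not set cow 3 apart, as the probe printed here was at 4.46, 4.17, 4.22, 3.91, 4.24 and 4.69. The probes are printed 5′ to 3′ because they differ in how they read cow 3; capitals mark the run of 21 bases that the JSP.1 probes share. The first JSP.1 probe covers chr23:28599390-28600011 and the BOLA probe chr23:28656079-28656442, both minus strand and across an intron on Btau_3.1; the files give no position for the second JSP.1 probe.
JSP.1, first probe: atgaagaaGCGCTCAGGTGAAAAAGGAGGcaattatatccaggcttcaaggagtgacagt
JSP.1, second probe: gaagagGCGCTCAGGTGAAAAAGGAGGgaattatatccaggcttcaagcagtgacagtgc
BOLA: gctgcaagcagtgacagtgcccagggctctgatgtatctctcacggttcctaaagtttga
The second JSP.1 probe shares a run of 16 bases with the BOLA probe. In cow 3 the first JSP.1 probe was at -8.07 and the second at -1.19, each the lowest of the 6 cows for that probe. The first probe was well above background on 5 arrays only. Its value in cow 3 lies near -8.52, the median of probes called on no array. Class I heavy chain genes are near-identical copies, so these probes may read more than 1 gene.

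Cows 4 and 6 were the highest pair for 32 of the 100 most variable genes and for 14.39% of all described genes. In 21 of the 32 both cows stood more than 1 above every other cow, and in 9 more than 2. They were led by the lysozyme genes LOC281287 and LOC781146, with gaps of 3.28 and 3.15, then LTF, AMN, a partner of cubilin in protein uptake, with a gap of 2.76, INHCA, which the files describe as serotransferrin-like, with a gap of 2.54, and HS3ST6, a heparan sulfate sulfotransferase, with a gap of 2.27. Others were B3GNT6, which builds mucin-type sugar chains, VIL1, the actin bundler of microvilli, MMP7, the metalloproteinase matrilysin, and SERPINA14, with gaps of 2.06, 1.97, 1.84 and 1.18. These names were chosen after the values were seen. For LOC781146 all 4 probes were highest in cow 6, whereas LOC281287 was read by 1 probe and its other probe passed on no array. Cow 4 was the only fertile cow on its slide and the slide of cow 6 is not known, so whether this pair shared a slide cannot be told.

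Smooth muscle genes were highest in cow 4 for 9 of 11 members and lowest in cow 2 for 6 of 11. The list mean was 1.83, 0.86, 1.86, 2.95, 1.41 and 1.98 in cows 1 to 6. ACTA2, smooth muscle actin, ran from 3.77 in cow 2 to 5.73 in cow 4, and TAGLN, transgelin, from 0.82 to 3.51 in the same cows. Over all described genes, cow 4 was highest for 18.8% and cow 2 lowest for 17.1%. ACTG2, enteric smooth muscle actin, was at 1.07, -4.03, 0.66, 3.64, 0.60 and 1.42 on its brightest probe. The low value of cow 2 was not seen on its other probes, which read -0.79 and 0.22 in that cow, while all 3 probes were highest in cow 4. The list mean of cow 2 and the count of genes lowest in that cow include this low value. The mean of the 2 described mesothelial genes was also highest in cow 4, at -2.80, and its part in these values was not tested.

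The first of these other ACTG2 probes, which disagrees with the brightest one in cow 2, covers chr11:11148003-11149705, minus strand on Btau_3.1, and is given 5′ to 3′.
ACTG2, across an intron: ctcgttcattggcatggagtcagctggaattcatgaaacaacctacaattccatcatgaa
It read highest in cow 4, at 2.09.

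Proliferation genes were highest in cow 4 for 18 of 22 members and lowest in cow 5 for 13. Over all described genes, cow 4 was highest for 18.8% and cow 5 lowest for 11.6%. Their list mean was -0.80 in cow 4, between -1.85 and -1.63 in cows 1, 2, 3 and 6, and -2.27 in cow 5. UBE2C, which targets mitotic cyclins for degradation, was at -1.33 in cow 4 and -4.39 in cow 5, and RRM2, which makes deoxynucleotides, at -1.97 and -5.14. MCM7, a subunit of the replicative helicase, ran from 2.30 in cow 3 to 2.79 in cow 6 (mean 2.58 ± 0.17, SD, n = 6).

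Immediate early genes were highest in cow 6 for 8 of 13 members, and cows 1 and 6 were the highest pair for 8. Over all described genes, cow 6 was highest for 24.4%, and cows 1 and 6 were the highest pair for 6.71%. FOS, a transcription factor induced within minutes of a stimulus, was at 3.25, 1.16, -0.17, -0.60, -0.47 and 3.89 in cows 1 to 6 (mean 1.18 ± 1.97, SD, n = 6). All 3 FOS probes were highest in cow 6 and next highest in cow 1. EGR1, of the same class, was at 2.63 in cow 1 and 3.15 in cow 6, against -0.94 to 1.22 in the others. Cow 3, on the slide of cow 1, was low for both genes. A FOS probe that carries the pattern lies at chr10:88961882-88961941, plus strand on Btau_3.1, and read -1.76 in cow 1, a little more in cow 6, and -5.89 to -3.80 in the rest.
FOS: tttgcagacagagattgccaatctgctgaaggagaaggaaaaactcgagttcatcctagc

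Macrophage genes were lowest in cow 6 for 10 of 12 members. Their list mean was -1.47 in cow 6 and between -0.50 and -0.25 in the other 5 cows. C1QA was at 1.28 in cow 6 and its median was 2.77. VSIG4 and MRC1, surface receptors of resident macrophages, were also lowest in cow 6, at -2.93 and -4.01, against medians of -1.63 and -2.26. Cow 6 was lowest for 24.5% of all described genes. Pericyte genes were lowest in cow 6 for 4 of 6, with RGS5 at -3.57 there and a median of -2.04.

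**Figure D4:**
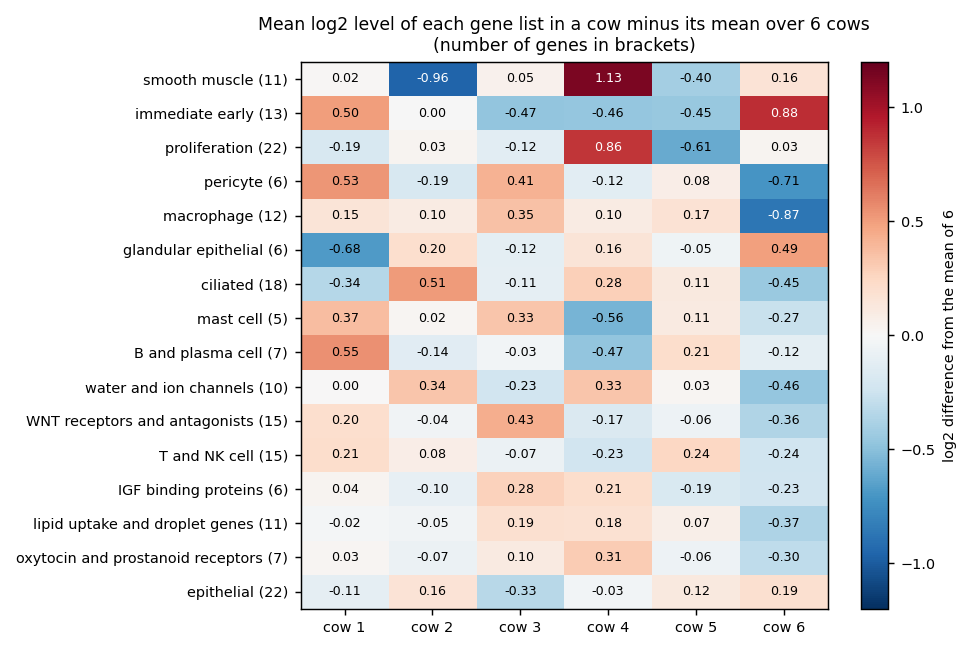
Deviation of each cow's mean list level from the mean of the 6 fertile cows, in log2 units, for the 16 lists of at least 5 described genes with the largest SD between cows; the number of genes is in brackets. Cow 4 is 1.13 above the mean for smooth muscle and 0.86 above for proliferation, cow 6 is 0.88 above for immediate early genes, and cow 2 is at -0.96 for smooth muscle. The value of cow 2 includes a low reading of the brightest ACTG2 probe that the other ACTG2 probes did not share.

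The other highly variable genes had other patterns. PLA2G2F, a secreted phospholipase, was at -0.06 in cow 3 and between -6.56 and -4.65 in the rest, on the only probe of it that passed. Its other probe passed on no array. IGFLR1, a receptor of an IGF-like protein, was at -4.93 and -4.72 in cows 1 and 6 and between -0.51 and 0.19 in the other cows. LOC783399 was at 1.57 and 2.15 in cows 2 and 5 and between -5.12 and -2.91 in the rest. Cows 2 and 5 shared a slide, and LOC783399 was 6.05 ± 0.66 (SE) higher there than on the slide of cows 1 and 3, with a limma adjusted p of 0.05145, just above the threshold of 0.05. Where a gene among the 100 most variable had more than 1 described probe, all probes had the same highest cow for 28 of 35 genes (80.0%), against 38.6% of 6932 such genes overall.

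**Figure D5:**
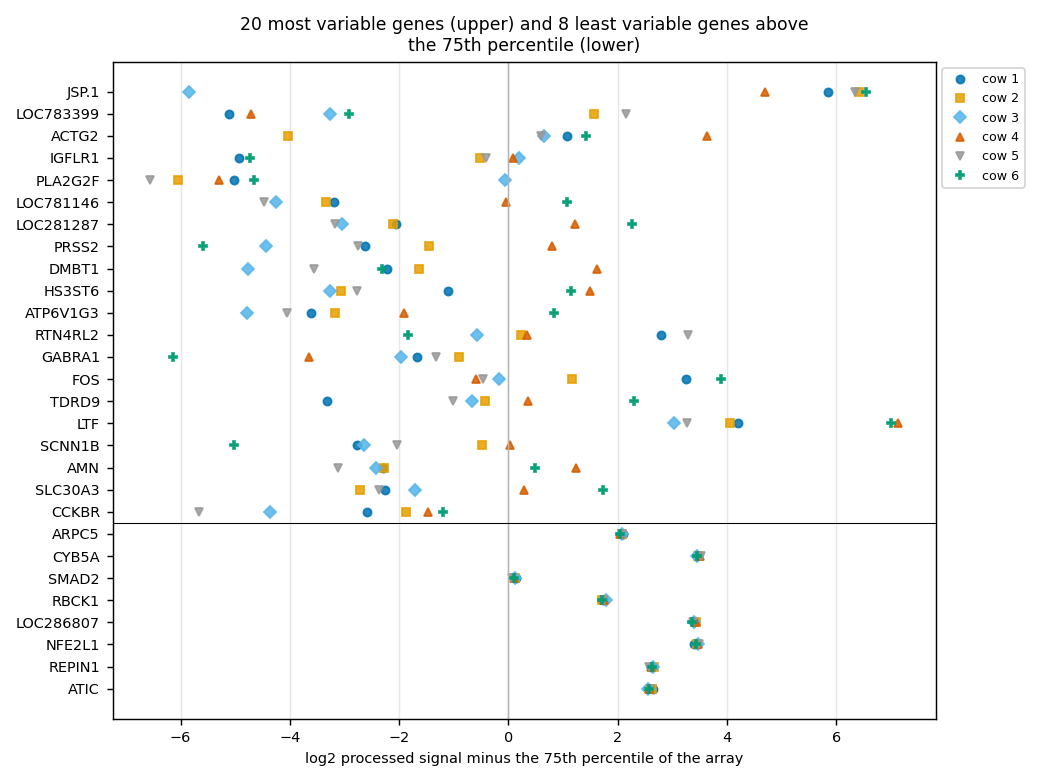
Level in each of the 6 fertile cows of the 20 genes with the largest SD (upper block) and of the 8 with the smallest SD among genes above the 75th percentile (lower block); the horizontal axis is log2 processed signal minus the array's 75th percentile. JSP.1 has 5 points between 4.70 and 6.53 and cow 3 at -5.84, LTF has cows 4 and 6 near 7, and the 6 points of ARPC5 overlap with an SD of 0.02.

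Array slide moved with part of this variation. Cows 1 and 3 shared slide 1, cows 2 and 5 shared slide 2, cow 4 was on slide 3, and the file of cow 6 gives none; scan day and slide coincided. The median absolute difference between cows over probes was 0.15 and 0.19 for the pairs on 1 slide, 0.25 to 0.29 for pairs on different slides and 0.28 to 0.35 for pairs with cow 6. Cow 6 was more than 1 from the median of the 6 cows for 4.97% of genes, against 1.32% to 2.44% for the other cows.

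Slide 2 was set against slide 1 with limma over the 5 arrays of known slide. Cow 4, alone on slide 3, adds nothing to this contrast, which rests on cows 1, 2, 3 and 5. At a Benjamini-Hochberg adjusted p below 0.05, 221 of 29844 probes (0.741%) differed, 194 of them higher on slide 2 (0.65%) and 27 lower. By their described probe, 114 of 11984 genes differed (0.951%), among them 8 of the 100 most variable genes and none of the 20 most variable. With 2 cows on each slide, cow and slide cannot be told apart in this contrast. The probes of ERF, a transcriptional repressor, and CNTFR, the receptor of ciliary neurotrophic factor, were 3.45 ± 0.12 (SE) and 3.15 ± 0.18 (SE) higher on slide 2 (limma adjusted p = 0.0193 and 0.0213). SLC18A2, a vesicular monoamine carrier, was lower there, at -1.66 ± 0.12 (SE; limma adjusted p = 0.0286). ESR1 was 0.56 ± 0.12 (SE) higher on slide 2, with a limma adjusted p of 0.115. LTF differed by 0.04 ± 0.48 (SE; limma adjusted p = 0.967) and FOS by -1.2 ± 1.26 (SE; limma adjusted p = 0.606), and neither was called.

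Base composition went with the slide difference. Among probes of more than 65% GC, 30 of 208 (14.4%) were called, all higher on slide 2, against 22 of 5985 (0.368%) among probes of at most 35% GC. In the GC-rich probes the median deviation from the median of the 6 cows was 0.13 in cow 2, 0.18 in cow 5 and -0.17 in cow 6. Leaving out cow 1 left 1 called probe, and leaving out cow 2, 3 or 5 left 0, with 3718, 5350 and 4758 probes at an unadjusted p below 0.05 by limma. Across all pairs of cows, 79 genes were more than 1 above every other cow in both cows 2 and 5, which shared a slide, and 45 in both cows 4 and 6. The count was only 7 for cows 1 and 3, which also shared a slide, and at most 7 for any other pair.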

How the data were processed

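Endometrial RNA of 6 fertile cows was hybridised to 1-colour Agilent arrays of bovine 60-base probes, annotated on Btau_3.1 per the file headers. The submitters' processing notes name version 10.5.1.1 of Agilent's Feature Extraction software. The authors deposited its processed spot intensity, which is already background-corrected per the file headers. The authors' deposited value table, in log2 units and centred per probe, served as an alternative for the spread and the slide contrast only; after removal of an offset it matched the array files to within 0.01 for all probes in cows 3 to 6 relative to cow 2, but for 17.0% of probes in cow 1. The file of cow 6 has no header, holds rounded signals and has gene names out of register with its probes, so names were taken by probe from the other files.

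Control spots and spots with an outlier mark were dropped, spots of 1 probe were averaged, and log2 of the processed signal minus the array's 75th percentile was used. A probe counted as above background on an array when at least 50% of its spots did. Names came from RefSeq accessions (22202 probes), current symbols (9849) or unambiguous older symbols (372), looked up in the RefSeq gene table of ARS-UCD2.0, which was used for names only; 11230 probes had only the files' own name and were not used as genes. Each gene was described by its brightest passing probe. Levels are means ± SD over cows, and no p-value is given for them. Slide 2 was set against slide 1 by an empirical Bayes linear model (limma 3.58.1, R 4.3.3), with Benjamini-Hochberg adjustment over 29844 probes. In simulated data of that contrast, 24% of probes changed 2-fold and 94% of those changed 4-fold were recovered (100 each), with 6 false calls of 124. The simulated noise was independent between probes, with no effect shared by an array or cow, so the false-call share may not hold for the real arrays. On these, 6780 of 29844 probes had an unadjusted p below 0.05 by limma. Other steps used Python 3.11.15, pandas 2.3.3, numpy 2.4.6 and matplotlib 3.10.9.

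Genes were named by a rule: the 30 brightest, the 20 most and 8 least variable, and, in each list, the 3 brightest, the most variable and those seen on no array, together with a fixed set of receptors, secreted products and markers; other genes, list members included, are named as examples chosen after their values were seen. The members, lists and alternatives were chosen with earlier results of these data known. Alternatives were other background corrections and normalizations, other detection rules, other ways to represent a gene or measure spread, and leaving out each cow. Array number and 1 array per cow limit the precision, and nothing says that arrays were repeated. A few items are not reported here.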

Additional observations from a re-analysis of the deposited data

Results flagged for a closer look

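For each named gene, list mean and array measure, the highest or lowest cow was marked when its gap to the nearest other cow, divided by the range of the 6, exceeded Dixon's 95% critical value for 6 samples. Chance marks about 1 in 20 groups of values that are independent and were not chosen by their spread. Some genes here were chosen by their SD over the same 6 cows, and all values share 6 arrays. The 1 in 20 share therefore need not hold for them. The mark was met by 12 of 241 genes (4.98%), 4 of 43 list means (9.3%) and 1 of 3 array measures.

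Cow 6 stood apart for 5 genes. It was high for the ubiquitin gene UBB (6.58, nearest other cow 6.23), for TXNIP, a thioredoxin inhibitor (6.82, nearest 6.22), for HPGD (4.04, nearest 3.30) and for the class I gene BOLA-NC1 (6.31, nearest 5.75). It was low for the complement chain C1QA (1.28, nearest 2.69) and for the macrophage list mean (-1.47, nearest -0.50), and high for the steroid receptor list mean (-1.95, nearest -2.12).

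Cow 4 was high for RPS2 (7.09, nearest 6.77), for MYLK, the kinase of smooth muscle myosin (5.73, nearest 4.70), for SCARB1 (3.49, nearest 2.84) and for the mesothelial list mean of 2 genes (-2.80, nearest -3.85).

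Cow 3 was low for JSP.1 (-5.84, nearest 4.70) and PAG8 (-5.50, nearest -4.61) and high for PLA2G2F (-0.0621, nearest -4.65). Cow 5 was high for MX2 (-4.73, nearest -5.79), and cow 2 for the mean of mitochondrially encoded genes (3.89, nearest 3.71). The array of cow 1 had 156 outlier spots, against at most 14 on the others.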

How the results depend on the processing

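The count of probes above background on all 6 arrays was 29997; asking for 5, 4 or 1 of the 6 gave 31056, 31839 and 35328, and leaving out a cow gave 30023 to 30367. Of the 50 brightest genes, 28 were kept when a gene was the median of its described probes, 44 with normexp background correction, 48 when ranked by the lowest cow and 49 to 50 when a cow was left out. Of the 50 most variable genes, 31 were kept when probes needed 5 of 6 arrays, 18 when the median absolute deviation replaced the SD, 41 with normexp and 36 to 44 when a cow was left out. The 32 genes highest in cows 4 and 6 became 28 to 41 when cow 1, 2, 3 or 5 was left out and 31 to 37 under 5 other settings. The 221 probes that differed between slides became 4486 with normexp (952 higher and 3534 lower on slide 2, a turn of the main direction), 115 when 4 of 6 arrays sufficed, 1333 at an adjusted p below 0.1, and 0 to 221 when a cow was left out; the cause was not tested. A GC trend removed from each array, an alternative added after seeing the data, gave 202, and 4 others gave 181 to 331. With normexp the levels of 22 of 97 named genes moved by more than 1 SD. No paired analysis was possible because replicate numbers are shared only with the subfertile group, which was not compared. Levels near background and genes read by 1 probe are the least certain.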

Other observations

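Genes of protein folding and secretion were bright in all cows. All 11 chaperones passed and were above the 75th percentile, at a median level of 4.81 against 0.03 over all described genes. CALR, calreticulin of the endoplasmic reticulum, was at 6.09 ± 0.33 (SD, n = 6), CANX, its membrane-bound relative calnexin, at 5.08 ± 0.18 (SD, n = 6) and HSPA5, the main chaperone of the same compartment, at 5.07 ± 0.21 (SD, n = 6). The stress-inducible HSPA1A was at 3.52 ± 0.35 (SD, n = 6), lowest in cow 6 at 2.89.

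A few epithelial or secretory genes were high in cow 4 without cow 6, names chosen after their values were seen. DMBT1, a mucosal scavenger protein, was at -2.22, -1.64, -4.76, 1.62, -3.56 and -2.31 in cows 1 to 6. PRSS2, a trypsin, was at -2.62, -1.45, -4.44, 0.79, -2.76 and -5.59. Both genes were read by 1 probe.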
